A study of Mus musculus with 6 samples.

Results

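Eph receptors and ephrins were read on arrays of keratinocytes sorted from mouse skin, as every probe set whose annotated gene symbol was Epha2, Epha4, Ephb2, Ephb3, Ephb4, Ephb6, Efna1, Efnb1 or Efnb2. The rule found 9 probe sets of 7 genes among the 12422 probe sets that were not array controls. Ephb2 and Ephb4 had no probe set under their symbols and were not analysed here. RNA came from K15-EGFP transgenic mice, in which a keratin 15 promoter drives enhanced green fluorescent protein (EGFP) and labels the hair follicle bulge, where follicle stem cells reside. EGFP-high, α6 integrin positive cells were compared with EGFP-negative, α6 integrin positive cells, on 3 arrays for each population. Both populations carried the transgene, and the labels name no age, strain or treatment. Whether the replicates are separate mice or sorts is not stated either, and the p-values reflect the spread of these samples alone, which may in part be technical.

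Eph receptors are receptor tyrosine kinases that sense ephrins on the surface of neighbouring cells. A-type ephrins are held in the membrane by a lipid anchor, B-type ephrins span it, and contact sends signals into both cells, the receptor side being called forward and the ephrin side reverse. In epithelia this system is known for keeping cell populations apart and for adjusting adhesion, migration and growth, and in skin it has been tied to keratinocyte proliferation and differentiation.

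The arrays gave 1 linear intensity per probe set, with array medians of 69.55 to 76.05. Deviations from the group means correlated at 0.305 to 0.368 across probe sets between EGFP-high and EGFP-negative arrays of the same replicate number. The labels state no pairing. Cd34, which mouse bulge cells carry on their surface, read 1338.8, 1579 and 1450.4 in EGFP-high replicates 1, 2 and 3, against 34.4, 29.4 and 40.9 in EGFP-negative replicates 1, 2 and 3. Itga6, the gene of the α6 integrin in both gates, read 405.6 to 585.3 in EGFP-high and 1050 to 1371.4 in EGFP-negative cells. The probe set of Krt15 read 1.7 to 7.4 on all arrays and that of Krt14, a basal keratin, 6.8 to 22.2. Both lay below the 95th percentile of 19 bacterial and yeast control probe sets on every array (25.5 to 42.25), so neither checks the sort. The basal genes Itga6, Itgb4, Trp63, Col17a1 and Lamb3 were above that level on all 6 arrays, and Krt5, the keratin partner of Krt14, was above it on 1 of 6.

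The B-type ephrin Efnb2 had the largest positive difference of the family, at 1.52-fold higher in EGFP-high cells, and the receptor Epha2 the largest negative one. Efnb1 and the brighter Ephb6 probe set leaned the same way as Efnb2, while Epha4 and Ephb3 showed no common direction. Of the 8 member probe sets bright enough to be tested, 0 passed an adjusted p of 0.05 (limma, Benjamini-Hochberg over all probe sets), where 5.19% of all 7453 tested probe sets passed (3.02% higher and 2.17% lower in EGFP-high). With the replicate number as a block in the fit, 1 of 8 passed, Efnb2, where 10.4% of all tested probe sets did (5.13% higher and 5.31% lower). At an unadjusted p of 0.05, 2 of 8 passed, against 17.1% of all tested probe sets. The median log2 difference of the 8 was 0.14, with a range of -0.74 to 0.60, beside a median of -0.0017 over all tested probe sets. The groups did not overlap for 2 of the 8, Efnb1 and Efnb2, where 22.7% of all tested probe sets did not overlap in either direction. Both were higher in EGFP-high, as were 11.6% of all tested probe sets without overlap. All 3 replicate numbers ran in the same direction for 5 of the 8, of which 4 were higher in EGFP-high. The lower one was Epha2, whose arrays of number 1 lay below the 95th percentile of the control probe sets, so its direction there is not readable. Over all 7453 tested probe sets the 3 numbers ran in the same direction for 3338, of which 1631 were higher. These counts describe the family and carry no test of it as a set.

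**Figure D1:**
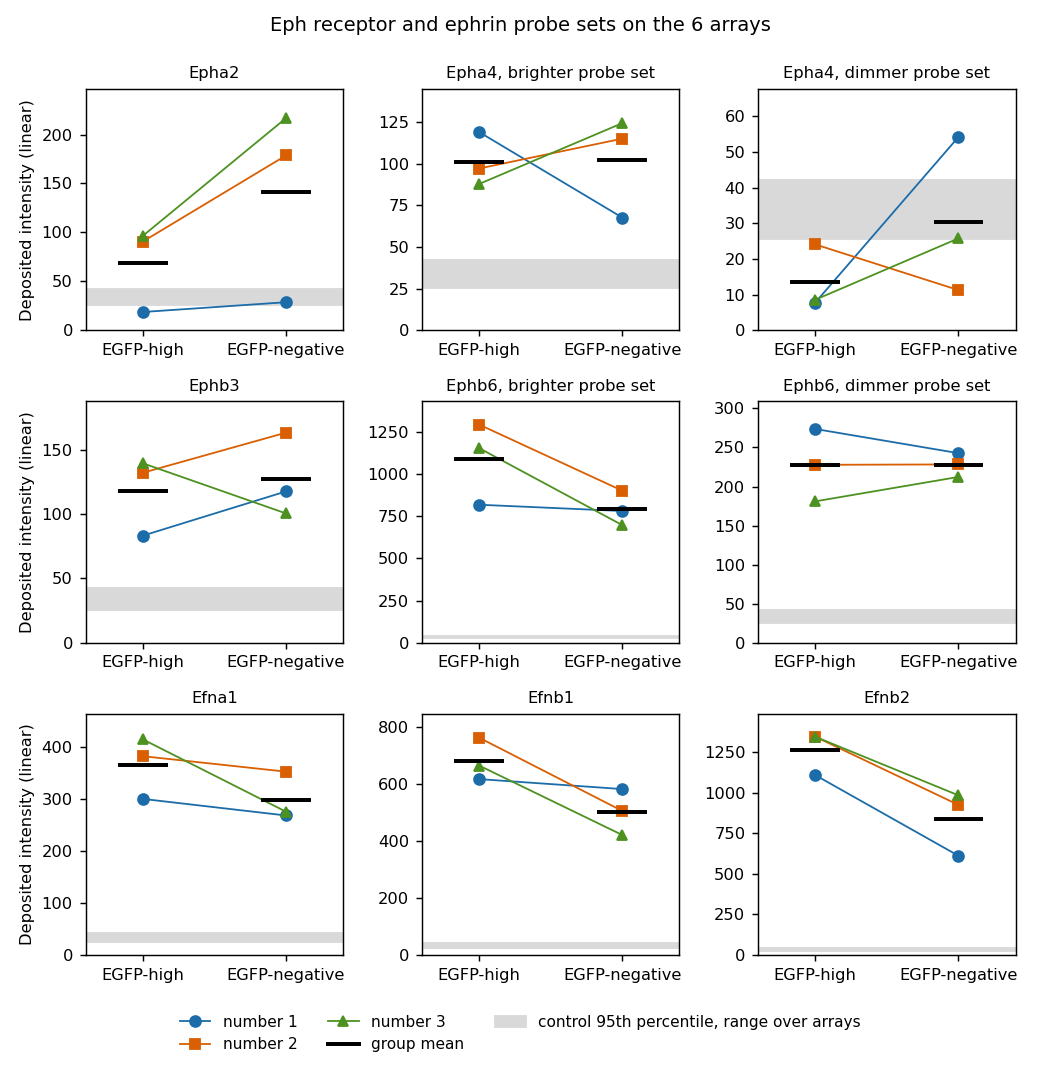
Deposited linear intensity (vertical axis, each panel on its own scale from 0) of the 9 Eph and ephrin probe sets in EGFP-high and EGFP-negative keratinocytes. Points are arrays, coloured lines join arrays of the same replicate number, black bars are group means of 3 arrays, and the grey band is the range over arrays (25.5 to 42.25) of the control probe sets' 95th percentile; all 3 lines slope down to EGFP-negative for Efna1, Efnb1, Efnb2 and the brighter Ephb6 probe set, and up for Epha2, whose arrays of number 1 lay below the control level.

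Efnb2 encodes ephrin-B2, a transmembrane ligand of EphB receptors and of EphA4 that is best known from arteries. Its probe set read 1108.7, 1345.4 and 1345.2 in EGFP-high replicates 1, 2 and 3, against 611.5, 925.1 and 984.0 in EGFP-negative replicates 1, 2 and 3. Every EGFP-high array was above every EGFP-negative array, and the lowest of each group was replicate 1. The means were 1266.4 ± 136.6 in EGFP-high and 840.2 ± 200.2 in EGFP-negative keratinocytes (SD, n = 3 each). The log2 difference was 0.60 (SE 0.20, 95% interval 0.14 to 1.07), with an adjusted p of 0.151 by limma. With the replicate number as a block the SE was 0.13, the interval 0.31 to 0.90 and the adjusted p 0.0203. Within numbers 1, 2 and 3 the EGFP-high intensity was 1.81, 1.45 and 1.37 times the EGFP-negative one. The call in the fit with the block was lost when both arrays of any 1 number were left out (adjusted p 0.0577 to 0.0834), and without EGFP-negative replicate 1 the log2 difference in the fit without the block was 0.40.

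Endothelial markers were read beside Efnb2 because of its place in arteries. Of 10 endothelial markers with a probe set, 5 (Cdh5, Tek, Tie1, Vwf and Cldn5) never exceeded the control level on any array, and 2 (Pecam1 and Eng) exceeded it on all 6. The summed intensity of the 10 was 400.3 to 511.7 in EGFP-high and 432.1 to 509.3 in EGFP-negative cells, so the groups overlapped. Sums of 7 melanocyte markers were 613.8 to 711 in EGFP-high and 452.8 to 498 in EGFP-negative cells. Among them Mitf, a transcription factor central to melanocytes, passed the test (log2 1.13, adjusted p = 0.0147, limma). The other tested melanocyte markers did not pass. Pmel (log2 0.489) and Sox10 (log2 0.314) leaned higher in EGFP-high, and Dct, a pigment gene, was nearly level (log2 -0.068). Kit, too dim to be tested, read 29.3 to 37.3 in EGFP-high and 21.6 to 24.2 in EGFP-negative cells, and exceeded the control level on 2 arrays. Tyr and Tyrp1, also untested, overlapped between the groups. Sums of 8 fibroblast markers were 1837.4 to 2137 in EGFP-high and 1496.7 to 1798 in EGFP-negative cells. Past the threshold, Fbln1 was higher (478.9 to 888.6 against 281.9 to 394.8) and Thy1 lower. Of the other tested fibroblast markers, Col1a1 leaned higher (log2 0.486) and Col1a2, Pdgfra and Dcn lower (log2 -0.291 to -0.0299). The sums therefore show no difference shared by the whole list. Sums of 3 Schwann cell markers were 431.1 to 453.3 in EGFP-high and 489.7 to 553.8 in EGFP-negative cells. Of these only Mbp was lower in EGFP-high (151.4 to 240.6 against 253.5 to 361.6, adjusted p = 0.132, limma). S100b never exceeded the control level, and Sox10, also counted among the melanocyte markers, leaned higher (log2 0.314). Sums of T cell, of Langerhans cell and macrophage, and of dermal papilla markers overlapped between the groups. The T cell sums held Thy1, also counted among the fibroblast markers, at 18.4 to 85.1 in EGFP-high and 154.6 to 207.1 in EGFP-negative cells. In contrast, Cd3d (18.6 to 28.7 against 2.2 to 7.6) and Cd3e (27.7 to 135.4 against 19.5 to 21.7) read higher in EGFP-high. Each of them exceeded the control level on 1 array only. The groups overlapped for Cd3g, Cd2 and Ptprc. The part of the melanocyte, fibroblast, Schwann cell and T cell markers in the Eph and ephrin differences was not tested. In bulk samples such as these, fewer cells of a type and less RNA per cell cannot be told apart.

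Efnb1 encodes ephrin-B1, the X-linked relative of ephrin-B2. It read 616.0, 761.3 and 663.6 in EGFP-high replicates 1, 2 and 3, against 581.1, 504.6 and 420.3 in EGFP-negative replicates 1, 2 and 3. The groups did not overlap, but the arrays of number 1 lay close together, at a ratio of 1.06 against 1.51 and 1.58 for numbers 2 and 3. The log2 difference was 0.43 (SE 0.17, 95% interval 0.04 to 0.82) and did not pass the threshold, with an adjusted p of 0.238, or 0.121 with the block. With the block and both arrays of number 1 left out, a setting chosen after seeing the data, the log2 difference was 0.61 and the adjusted p 0.0338. Leaving out number 2 or 3 in the same way gave 0.36 and 0.33, with adjusted p of 0.45 and 0.368.

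Efna1 encodes ephrin-A1, a lipid-anchored ligand that binds the receptor EphA2. It read 300.2, 382.4 and 414.8 in EGFP-high replicates 1, 2 and 3, against 268.3, 352.6 and 275.6 in EGFP-negative replicates 1, 2 and 3. Each EGFP-high array was above the EGFP-negative array of its number, by 1.12, 1.08 and 1.51 times, although the groups overlapped. The log2 difference of 0.27 (SE 0.18, 95% interval -0.14 to 0.69) did not pass the threshold (adjusted p = 0.523, or 0.318 with the block, limma). It was 0.18 without EGFP-high replicate 3, and 0.13 with the block and both arrays of number 3 left out.

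Epha2 encodes the receptor EphA2, an abundant Eph receptor of epithelia. It read 18.8, 90.7 and 96.5 in EGFP-high replicates 1, 2 and 3, against 28.8, 178.6 and 216.7 in EGFP-negative replicates 1, 2 and 3. Both arrays of number 1 were low and lay below the control level of their array (42.25 for the EGFP-high array and 37.17 for the EGFP-negative one), so number 1 gives no readable ratio, although its arrays enter the fits. In the other numbers EGFP-high read 0.508 and 0.445 times the EGFP-negative intensity. The log2 difference was -0.74 with an SE of 0.62, and its 95% interval of -2.14 to 0.67 was the widest of the tested family probe sets. With the block the SE was 0.20, the interval -1.21 to -0.27 and the adjusted p 0.0606, against 0.625 without it. Leaving out both arrays of number 1 gave -0.94, with an adjusted p of 0.0349, or 0.0142 with the block, a choice made after those values were seen. Leaving out number 2 or 3 with the block gave -0.68 and -0.59, with adjusted p of 0.293 and 0.325. Single arrays moved the difference widely in the fit without the block. It was -0.21 when EGFP-high replicate 1 was dropped and -1.46 when EGFP-negative replicate 1 was, and it passed under none of the 6 omissions of 1 array (adjusted p 0.155 to 0.887, limma). On this scale of log2(intensity + 19.3) the size is understated for a gene so near background.

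The EphB receptors and EphA4 were read on 5 probe sets. Ephb6 encodes a receptor whose kinase domain lacks catalytic activity, and its 2 probe sets disagreed. The brighter one read 818.9, 1295.0 and 1155.2 in EGFP-high replicates 1, 2 and 3, against 781.7, 902.4 and 698.1 in EGFP-negative replicates 1, 2 and 3. EGFP-high was higher in each number, by 1.05, 1.44 and 1.65 times, but its replicate 1 fell inside the EGFP-negative range. The log2 difference of 0.43 (SE 0.20, 95% interval -0.02 to 0.88) did not pass the threshold (adjusted p = 0.324, or 0.12 with the block, limma), and with the block and without number 1 it was 0.61 with an adjusted p of 0.0281. Without number 2 or 3 it was 0.39 and 0.29, with adjusted p of 0.397 and 0.391. The dimmer one, of a type designed under relaxed rules, read 273.7, 227.8 and 181.0 in EGFP-high and 242.7, 228.3 and 212.3 in EGFP-negative replicates 1, 2 and 3. Its log2 difference was -0.02 (SE 0.18, 95% interval -0.43 to 0.39).

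Ephb3 encodes EphB3, a receptor of B-type ephrins known from boundary formation in the gut. It read 83.2, 132.1 and 139.5 in EGFP-high replicates 1, 2 and 3, against 117.6, 163.3 and 100.5 in EGFP-negative replicates 1, 2 and 3. The groups overlapped, and EGFP-high was the lower in numbers 1 and 2 and the higher in number 3. The log2 difference was -0.09 (SE 0.24, 95% interval -0.63 to 0.44, adjusted p = 0.889, limma), and it turned positive when EGFP-high replicate 1 (0.11) or EGFP-negative replicate 2 (0.08) was left out.

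Epha4 encodes EphA4, which binds ephrins of both types. Its brighter probe set read 119.0, 97.1 and 87.8 in EGFP-high replicates 1, 2 and 3, against 67.7, 115.0 and 124.3 in EGFP-negative replicates 1, 2 and 3. Number 1 and the other numbers ran in opposite directions, and the log2 difference was 0.01 (SE 0.23, 95% interval -0.51 to 0.54, adjusted p = 0.985, limma). It turned negative after quantile normalization (-0.04) and when replicate 1 of EGFP-high (-0.09) or of EGFP-negative (-0.21) was left out. The dimmer probe set was too dim to be tested. It read 7.8, 24.1 and 8.6 in EGFP-high and 54.2, 11.3 and 25.8 in EGFP-negative replicates 1, 2 and 3, above the control level on 0 EGFP-high and 2 EGFP-negative arrays.

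**Figure D2:**
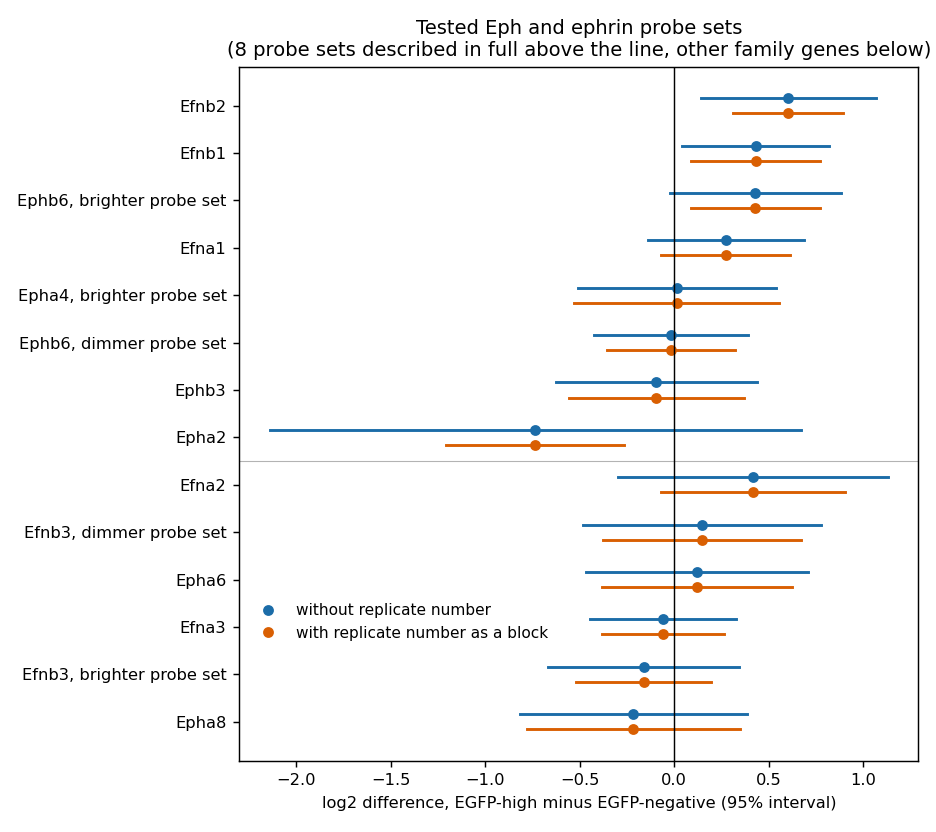
Log2 difference, EGFP-high minus EGFP-negative (horizontal axis), for the 14 tested Eph and ephrin probe sets, with 95% intervals from limma without (blue) and with (orange) the replicate number as a block. The block leaves each estimate in place and narrows most intervals. The intervals are not adjusted for the number of tests. Those of Efnb2 and Efnb1 lie above 0 in both fits, but only Efnb2 passed the adjusted threshold, and only with the block. The interval of Epha2 spans 0 without the block and runs from -1.21 to -0.27 with it.

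The stretches just before the transcription start of Efnb1 and Efnb2, whose groups did not overlap, and of Epha2, with the largest negative difference, are shown to give the sequence context of these genes. Each is 250 bases of RefSeq sequence on GRCm38.p6, 5′ to 3′ on the gene's strand, and 8 such windows matched the 7 member genes. Capitals mark matches on either strand to the GC box GGGCGG, the CCAAT box CCAAT, the TATA box TATAAA, the cyclic AMP response element TGACGTCA, the TEAD site CATTCC or the AP-1 site TGANTCA.
Efnb2, chr8:8661243-8661492, minus strand: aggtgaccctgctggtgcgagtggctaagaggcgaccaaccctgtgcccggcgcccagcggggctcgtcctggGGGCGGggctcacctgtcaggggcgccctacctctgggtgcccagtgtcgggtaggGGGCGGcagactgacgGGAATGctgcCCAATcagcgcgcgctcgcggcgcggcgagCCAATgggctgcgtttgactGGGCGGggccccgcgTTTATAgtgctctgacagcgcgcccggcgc
Efnb1, chrX:99135811-99136060, plus strand: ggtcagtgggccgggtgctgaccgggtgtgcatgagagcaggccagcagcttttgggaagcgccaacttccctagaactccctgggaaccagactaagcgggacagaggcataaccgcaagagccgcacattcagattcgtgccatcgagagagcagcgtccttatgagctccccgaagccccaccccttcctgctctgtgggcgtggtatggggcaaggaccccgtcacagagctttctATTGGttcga
Epha2, chr4:141300971-141301220, plus strand: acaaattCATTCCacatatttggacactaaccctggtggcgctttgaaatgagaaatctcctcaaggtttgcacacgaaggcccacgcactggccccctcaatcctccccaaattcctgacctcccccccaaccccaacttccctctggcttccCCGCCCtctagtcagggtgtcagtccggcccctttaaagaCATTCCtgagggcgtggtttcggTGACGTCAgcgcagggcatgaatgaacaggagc

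The window of Efnb2 held 3 GC boxes, 2 CCAAT boxes, 1 TATA box on the opposite strand and 1 TEAD site on the opposite strand. That of Efnb1 held 1 CCAAT box, on the opposite strand, and no other searched motif. That of Epha2 held 2 TEAD sites, 1 GC box on the opposite strand and 1 cyclic AMP response element. None of these matches overlapped another. Among 32851 windows of the same length, 32.7% held a GC box, 33.8% a CCAAT box, 12.4% a TATA box, 12.6% a TEAD site, 6.7% an AP-1 site and 1.5% a cyclic AMP response element. The windows of Efnb2, Efnb1 and Epha2 held 27, 13 and 9 CpG dinucleotides, beside a median of 6.0 over all windows. These are matches of letters and describe no binding.

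The other Eph and ephrin genes with a probe set numbered 10, and 5 of them (Efna2, Efna3, Efnb3, Epha6 and Epha8) were bright enough to be tested. In that test 0 of the 5 passed the threshold, with or without the block, and 0 did at an unadjusted p of 0.05 (limma). Efna3, a lipid-anchored ephrin, read 935.8, 774.7 and 676.5 in EGFP-high replicates 1, 2 and 3, against 778.2, 924.3 and 773.2 in EGFP-negative replicates 1, 2 and 3, and its log2 difference was -0.06 (95% interval -0.45 to 0.33). Efna2 had the largest difference of the 5 (log2 0.42, SE 0.32), with EGFP-negative replicate 1 (29.9) below the control level of its array. The brighter probe set of Efnb3, the remaining B-type ephrin, had a log2 difference of -0.16 (SE 0.22), and its other probe set one of 0.15 (SE 0.28). Efna5, both probe sets of Epha7 and 1 of Epha5 were not above the control level on any array, and Efna4, Epha3 and the other probe set of Epha5 exceeded it on 1 or 2 of the 6.

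Partners of Eph and ephrin signalling were read from a list of general knowledge, which also held the other Eph and ephrin genes. Its counts and median therefore include the 5 tested family genes described above, of which 0 passed. Of 38 tested genes of that list 1 was higher and 0 were lower in EGFP-high by limma, beside the 5.19% of all probe sets, with a median log2 difference of 0.02. At an unadjusted p of 0.05, 12 of the 38 passed, beside 17.1% of all probe sets. Pik3r1, the regulatory subunit of phosphoinositide 3-kinase that activated receptors such as EphA2 recruit, rose. It read 308.2, 258.8 and 441.8 in EGFP-high replicates 1, 2 and 3, against 129.6, 97.1 and 136.5 in EGFP-negative replicates 1, 2 and 3 (log2 1.32, SE 0.22, adjusted p = 0.00902, or 0.00146 with the block). Its adjusted p lay between 0.0143 and 0.0383 without any 1 array.

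With the block 3 of the 38 were higher and 2 lower, beside 10.4% of all probe sets. Ngef, the exchange factor ephexin that links EphA receptors to RhoA, read 270.8, 274.7 and 305.4 in EGFP-high replicates 1, 2 and 3, against 190.9, 33.7 and 36 in EGFP-negative replicates 1, 2 and 3. EGFP-negative replicate 1 stood far above the other EGFP-negative arrays, and replicate 2 lay below the control level of its array (36.81). The log2 difference was 1.83 (SE 0.46), with an adjusted p of 0.0185 with the block and 0.0589 without it, and without EGFP-negative replicate 1 the fit without the block gave 2.48 and an adjusted p of 0.00038, a size that rests on an EGFP-negative level at background.

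The other calls with the block concerned proteins that act on ephrins. Sdcbp, the scaffold syntenin, which binds the tails of B-type ephrins, read 88.2, 79.5 and 123.7 in EGFP-high replicates 1, 2 and 3, against 31.1, 32 and 64.4 in EGFP-negative replicates 1, 2 and 3 (log2 0.94, adjusted p = 0.0225 with the block and 0.0923 without it). The groups did not overlap, but EGFP-negative replicates 1 and 2 lay below the control level of their arrays (37.17 and 36.81), so 1 of the 3 EGFP-negative arrays measured the gene and the size is not exact. Ptpn13, a phosphatase that acts on phosphorylated B-type ephrins, read 746.6, 360.5 and 379.7 in EGFP-high replicates 1, 2 and 3, against 1028, 748.4 and 853.5 in EGFP-negative replicates 1, 2 and 3 (log2 -0.87, adjusted p = 0.0116 with the block and 0.125 without it). EGFP-high replicate 1 lay just below the lowest EGFP-negative array. Adam10, a metalloproteinase that sheds ephrins bound by their receptors, read 144.9, 106.3 and 103.3 in EGFP-high replicates 1, 2 and 3, against 197.7, 217 and 179.2 in EGFP-negative replicates 1, 2 and 3 (log2 -0.67, adjusted p = 0.0379 with the block and 0.0739 without it). Its dimmer probe set had a log2 difference of -0.36 and passed in neither fit. With the block and both arrays of number 2 or 3 left out, Sdcbp, Ptpn13 and Adam10 did not pass (adjusted p 0.0578 to 0.24), nor did Ngef without number 3 (0.126) or Sdcbp without number 1 (0.0516).

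**Figure D3:**
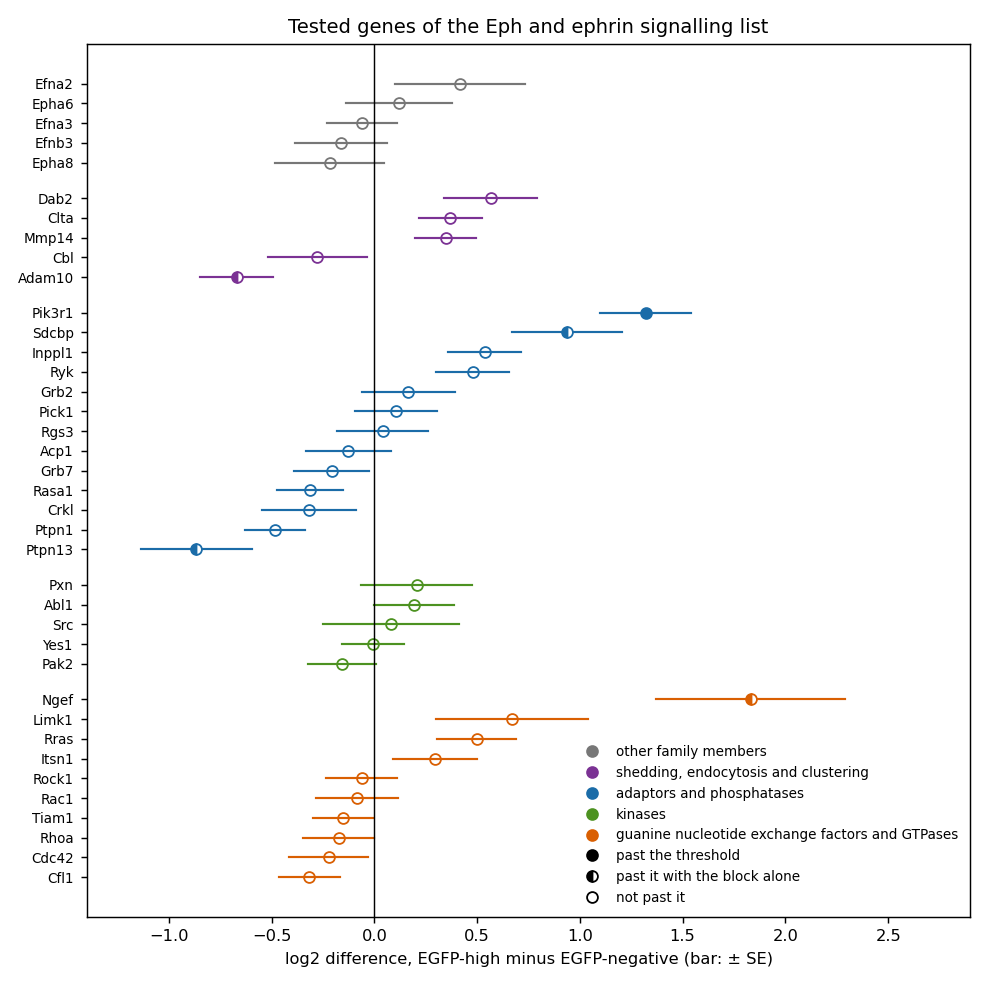
Log2 difference, EGFP-high minus EGFP-negative, with its SE (horizontal axis), for 38 tested genes of the signalling list, grouped by role. Filled points passed an adjusted p of 0.05 (Pik3r1), and points filled on 1 side passed in the fit with the block alone (Ngef, Sdcbp, Ptpn13 and Adam10). The 5 tested genes grouped under kinases lie between -0.159 (Pak2) and 0.205 (Pxn). Pxn, in that group, encodes the adaptor paxillin and is no kinase.

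The named genes with the profile most like that of Efnb2, the member past the threshold with the block, over the 6 arrays, by root mean square distance between log2 profiles centred on their own means, were Unc119 (0.0806), Pptc7 (0.087) and Hivep1 (0.0906). Unc119, a lipid-binding chaperone, read 150.7, 194.1 and 187.2 in EGFP-high replicates 1, 2 and 3, against 76.4, 106.1 and 121.6 in EGFP-negative replicates 1, 2 and 3. As with Efnb2, replicate 1 was the lowest array of each group and the groups did not overlap. Unc119 was chosen for its likeness on these same arrays, which favours such a match, so it is no separate result.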

How the data were processed

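The deposited table holds linear intensities, not log transformed, of 12488 Affymetrix mouse probe sets on each array. How the authors computed them (software, background, filters) is not given in the sources. Each column had a mean of 150.1 after trimming 2% at each end, so the arrays had been scaled to 1 level, and the largest array median was 1.093 times the smallest, so no rescaling was done.

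The 66 control rows were left out of the tests. Of the other probe sets 10833 had 1 gene symbol, 396 several and 1193 none in the platform annotation, and 10817 symbols matched a RefSeq gene table by Entrez identifier, with 0 changed. Intensities were analysed as log2(value + 19.3), 19.3 being the 25th percentile of values above 0. Those whose mean log2 value exceeded the 40th percentile (an intensity near 44.5) entered the test, 7453 in all. EGFP-high was set against EGFP-negative by limma 3.58.1 under R 4.3.3 (lmFit, eBayes with an intensity trend, two-sided, Benjamini-Hochberg, adjusted p of 0.05), without the replicate number. The numbers come from the titles and the labels do not state a pairing. All 3 same-number correlations exceeded 0.1, so the fit with the number as a block was run as well. It is given where it changes a call and for several other results. Pairs of different number gave -0.257 to -0.0629. Centring each group on its mean pushes these below 0 when the same-number ones are positive, so they are no separate evidence of pairing. The number of arrays limits the precision.

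A gene of the signalling list was represented by its brightest probe set. Named were every member probe set, list genes past the threshold, the other Eph and ephrin genes, the sort genes and the 3 genes nearest to a called member. Members and lists were chosen with earlier results of these data known, and the control level, the promoter motifs and the printed windows after values or sequences were seen. Alternatives were the pseudocount, the filter, quantile normalization, the variance prior, the block, the mean over probe sets and leaving out arrays. The fitting script was tested on simulated data.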

Additional observations from a re-analysis of the deposited data

How the results depend on the processing

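The differences of Efna1, Efnb1, Efnb2, Epha2 and the brighter Ephb6 probe set kept their direction under every alternative run. The filter at the 60th percentile left out Epha2, Epha4 and Sdcbp, which gave no value there. The member probe sets past the threshold were 0 higher and 0 lower, and stayed at 0 under the 13 alternatives planned, except with the replicate block, which gave 1 higher (Efnb2). When both arrays of number 1 were dropped, which was decided after the values were seen, 1 was lower (Epha2), and with the block and both arrays of 1 number left out 0 to 2 were higher and 0 to 1 lower. Signs that turned were those of differences near 0. The brighter Epha4 probe set gave -0.0364 after quantile normalization, -0.21 to 0.15 without single arrays, and -0.31 without both arrays of number 1, with or without the block. Ephb3 gave -0.23 to 0.11 without single arrays and 0.0681 without both arrays of number 1, and with the block -0.34 to 0.0681 without 1 number. The dimmer Ephb6 probe set gave -0.15 to 0.12 without single arrays, and with the block -0.11 to 0.0792 without 1 number. Over all probe sets, 225 were higher and 162 lower, against 382 higher and 396 lower with the block, 108 to 266 higher and 83 to 234 lower without single arrays, and 190 to 399 higher and 174 to 379 lower with the block and without 1 number. Genes of the signalling list that were higher came to 3 with a pseudocount 4 times as large, 2 without the filter, 2 with the filter at the 60th percentile, 2 with the mean of all probe sets of a gene, 3 with the block and 3 without both arrays of number 1, where 1 was lower. Those lower came to 2 with the block. Without single arrays 1 to 3 were higher and 0 to 2 lower, also with the block and without 1 number. Values below the control level, where the array measures no difference, included those of Epha2 on number 1, most of the dimmer Epha4 probe set, Sdcbp in EGFP-negative replicates 1 and 2, Ngef in EGFP-negative replicate 2 and Efna2 in EGFP-negative replicate 1.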
